A study of Mus musculus with 9 samples.

Results

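Matrix metalloproteinases (MMPs) and tissue inhibitors of metalloproteinases (TIMPs) were followed in mouse bone marrow-derived macrophages (BMDMs) by RNA sequencing. The genes were 10 named members of both families, 7 MMPs (Mmp2, Mmp8, Mmp9, Mmp12, Mmp13, Mmp14 and Mmp19) and 3 TIMPs (Timp1, Timp2 and Timp3), matched by Ensembl identifier, and all 10 were found among the 55655 rows of the deposited tables. Marrow came from the femur and tibia of wild-type C57BL/6 mice aged 6 to 8 weeks, and every culture was matured for 7 days in 10 ng/mL macrophage colony-stimulating factor. There were 3 libraries in each of 3 groups: M0 macrophages, which received neither polarizing agents nor light; M1 macrophages, which were polarized with lipopolysaccharide (LPS) plus interferon-γ (IFN-γ) and kept in the dark without laser light; and M1 + PBM macrophages, which received the same LPS plus IFN-γ together with photobiomodulation (PBM), an irradiation with a semiconductor laser. RNA from the M1 and M1 + PBM groups was collected 12 h after the intervention. The labels number the replicates but do not say whether they came from separate animals or cultures, so the p-values measure the spread between these libraries only.

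MMPs are zinc-dependent endopeptidases that are made as inactive precursors and that cleave collagens, elastin, other matrix proteins and many cytokines once their propeptide is removed. TIMPs bind the active site of mature MMPs and block it, so that matrix breakdown depends on the balance of both families. Macrophages are a well-known source of both, and inflammatory stimuli are known to change which of them a macrophage makes.

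The main contrast lay between resting and polarized cells. The collagenase gene Mmp13 and the membrane-type protease gene Mmp14 were far higher in all 3 M1 libraries than in all 3 M0 libraries, and the inhibitor gene Timp2 was far lower. The macrophage elastase gene Mmp12 led the MMPs in M0, whereas Mmp13 and Mmp14 led them in M1. With PBM, none of the 9 members that could be tested passed the p and fold thresholds, which only 0.261% of all tested rows passed. The M1 + PBM values of every member overlapped those of M1, while 11.0% of all tested rows did not overlap.

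To show where transcription of these genes starts, the 100 bases just upstream of the annotated start site are printed for Mmp13, Mmp14 and Timp2, whose M0 and M1 libraries did not overlap, and for the other inhibitors Timp1 and Timp3. The second annotated start of Mmp12 is added, chosen after its values were seen, because it shares a motif with Mmp13. The sequences are those of RefSeq for GRCm38.p6, a later build than the mm9 named in the submitters' processing notes, and each is given 5′ to 3′ on the strand of its gene. Capitals mark an AP-1 element, a GC box or a TATA box.
Mmp13, chr9:7272414-7272513, plus strand: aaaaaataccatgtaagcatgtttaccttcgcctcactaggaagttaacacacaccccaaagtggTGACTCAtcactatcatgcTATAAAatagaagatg
Mmp12, chr9:7347274-7347373, plus strand: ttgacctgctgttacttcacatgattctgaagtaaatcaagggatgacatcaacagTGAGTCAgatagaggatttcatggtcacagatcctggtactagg
Mmp14, chr14:54431498-54431597, plus strand: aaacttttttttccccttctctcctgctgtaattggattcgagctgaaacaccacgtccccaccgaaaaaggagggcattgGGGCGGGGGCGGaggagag
Timp2, chr11:118355412-118355511, minus strand: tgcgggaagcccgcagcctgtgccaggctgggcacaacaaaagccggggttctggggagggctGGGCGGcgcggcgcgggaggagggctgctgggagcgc
Timp1, chrX:20870066-20870165, plus strand: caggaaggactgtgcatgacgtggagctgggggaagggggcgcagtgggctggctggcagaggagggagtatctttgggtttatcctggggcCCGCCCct
Timp3, chr10:86300312-86300411, plus strand: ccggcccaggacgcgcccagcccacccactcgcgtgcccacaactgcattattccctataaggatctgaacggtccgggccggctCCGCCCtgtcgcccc

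RefSeq promoter windows were held for 7 of the 10 members, as 8 windows of 300 bases, from 250 before the start site to 50 after it. Short motifs were searched on both strands: AP-1 as TGANTCA, the GC box as GGGCGG and the TATA box as TATAAA. AP-1 letters were present in 2 of the 8 member windows, those of Mmp13 and the second start of Mmp12, and in 7.81% of all 32851 promoter windows. The first base of the AP-1 match lay at position -35 of Mmp13 and -44 of Mmp12, and Mmp13 also held a TATA match at -16. GC boxes were present in 4 of the 8 windows, those of Mmp14 and all 3 TIMPs, against 35.7% of all windows. TATA letters were present in 3 of the 8, those of Mmp13, Mmp8 and the second Mmp12 start, against 13.6%. These matches describe letters in the windows and say nothing on the binding of a factor. On the genome, Mmp8, Mmp12 and Mmp13 are 3 of the 9 protein-coding family genes on chromosome 9.

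Levels are given as FPKM (fragments per kilobase of transcript, scaled to the mapped fragments of the library), which is a level per length and so can be set side by side between genes. From the smallest steps between low FPKM values, the libraries held an estimated 30750000 to 42070000 fragments. Macrophage markers were strong in every library, with a summed FPKM of 5499 to 10341 over 8 genes including Adgre1 and Csf1r. The largest term of that sum was Lyz2, at 3459 to 8773, while Adgre1 was at 299 to 864 and Csf1r at 156 to 343. The 7 M1 markers, among them Nos2 and Il6, summed to 1234 to 1490 in M1 and 571 to 709 in M1 + PBM, and to 1.68, 2.22 and 38.2 in the 3 M0 libraries. M0 replicate 3 stood apart from the other M0 libraries. Its 18 stromal markers, such as Col1a1 and Sparc, summed to 406, against 15.6 and 13.8 in M0 replicates 1 and 2. The sums were 26.4 to 34.2 in M1 and 12.2 to 62.8 in M1 + PBM. Not every marker followed: Dcn was 0.497 in M0 replicate 3 and 0.674 to 1.63 in M1. Lum and Thy1 were only 0.0594 and 0.0773 in M0 replicate 3. Differences of the members from M0, and the counts of members and list genes that did not overlap M0, are therefore given with and without M0 replicate 3. In these bulk samples, fewer cells of a type and less RNA per cell cannot be told apart.

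**Figure D1:**
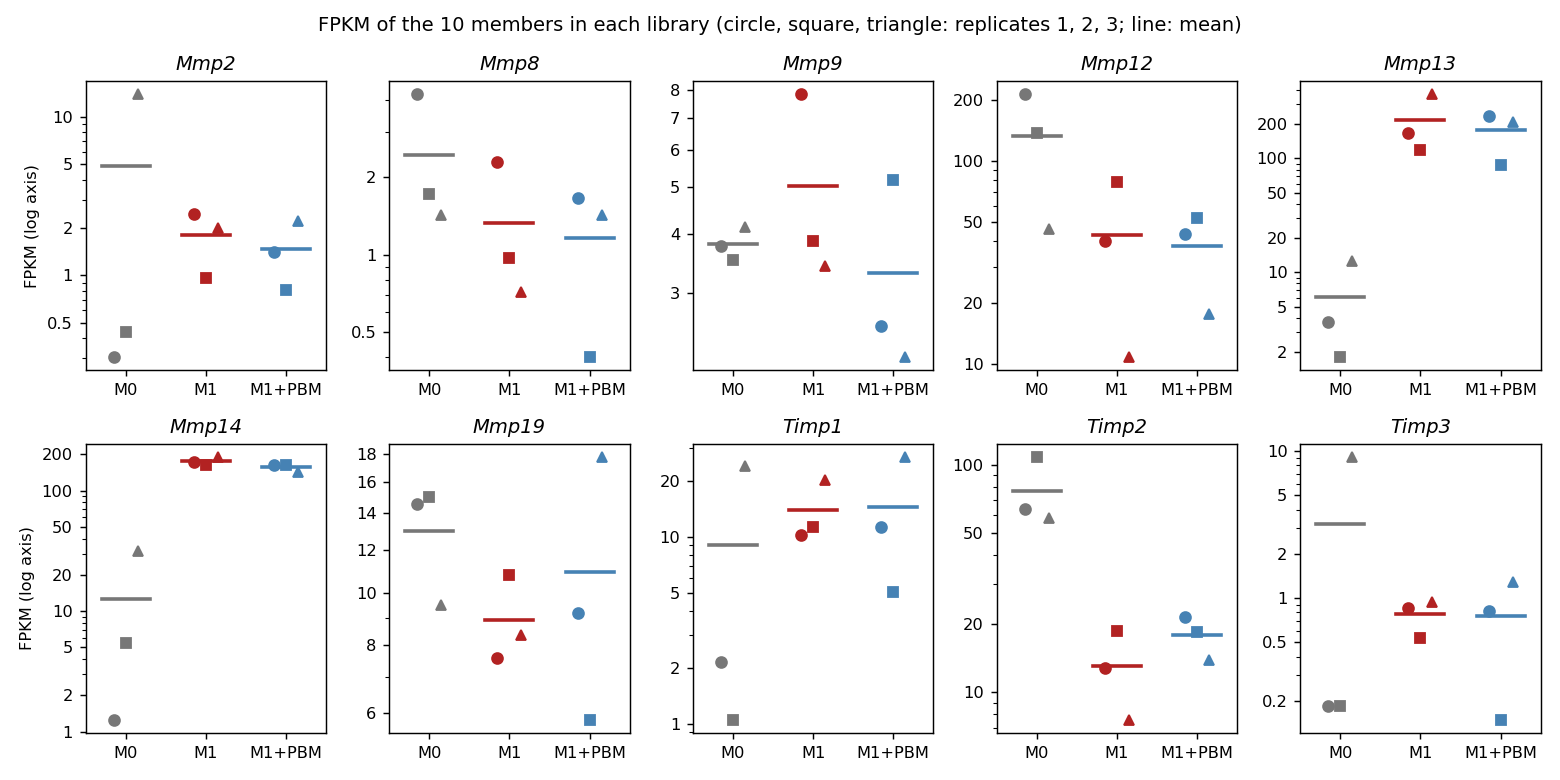
FPKM on log axes for the 10 genes in M0, M1 and M1 + PBM macrophages; circles, squares and triangles stand for replicates 1, 2 and 3, and lines for group means. Mmp13 and Mmp14 lie higher and Timp2 lower in all M1 and M1 + PBM libraries than in all M0 libraries, and the grey triangle of M0 replicate 3 is the highest point for Mmp2 and Timp3.

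The comparison of M1 with M0 asked which members differ between resting and polarized macrophages. The M0 libraries stand in a separate table whose normalization relative to the other is not given, so levels were described without a test. Only members that reached an FPKM of 1 in 3 or more of the 9 libraries were counted, which left out Timp3. For 3 of these 9 members the M1 and M0 libraries did not overlap, with 2 higher and 1 lower in M1. Among all 13915 rows of that filter, 66.3% did not overlap, 15.6% higher and 50.6% lower in M1, so the members' share lay below that of all rows. The median difference over all rows was -0.34 on the log2(FPKM + 1) scale. Scaling the 9 libraries by median of ratios moved that median to 0.042 and the split of non-overlapping rows from 2175 higher and 7044 lower to 4396 higher and 3518 lower. Without M0 replicate 3, 7 of the 9 members did not overlap, 4 higher and 3 lower in M1, against 76.2% of all rows (18.7% higher and 57.4% lower).

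Mmp13 (ENSMUSG00000050578) encodes collagenase-3, which cuts fibrillar collagen. Its FPKM was 3.68, 1.80 and 12.6 in M0, 167, 119 and 367 in M1 and 238, 87.3 and 208 in M1 + PBM. Every polarized library was above every M0 library, and M1 and M1 + PBM libraries were interleaved. The mean FPKM was 6.03 ± 5.77 in M0 and 217.6 ± 132 in M1 (SD, n = 3 each), 36.1-fold higher in M1, and 79.4-fold higher against M0 replicates 1 and 2 alone. The difference of mean log2(FPKM + 1) was 5.11, and 5.54 with median-of-ratios scaling. Its spread was wide within M1, with a coefficient of variation of 0.605.

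Mmp14 (ENSMUSG00000000957) encodes MT1-MMP, a membrane-anchored collagenase that activates pro-MMP2 and pro-MMP13 at the cell surface. Its FPKM was 1.26, 5.43 and 31.5 in M0, 171, 164 and 190.4 in M1 and 164, 163 and 142 in M1 + PBM. The M0 libraries were far apart from each other, and even the highest of them, replicate 3, lay well below every polarized library. The M1 mean of 175 ± 13.5 was 13.8-fold the M0 mean of 12.7 ± 16.4, or 52.4-fold without M0 replicate 3. On the log2(FPKM + 1) scale the difference was 4.50, and 4.92 with median-of-ratios scaling. In M1 it was the least variable member, with a coefficient of variation of 0.0772, and in M1 + PBM the value was 0.0811.

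Mmp12 (ENSMUSG00000049723) encodes macrophage elastase, which degrades elastin. Its FPKM was 213, 137 and 46.3 in M0, 40.4, 78.1 and 10.8 in M1 and 43.7, 52.1 and 17.5 in M1 + PBM. Replicate 3 was the lowest library in each group, and the groups overlapped through M0 replicate 3 and M1 replicate 2. The M0 mean of 132.0 ± 83.3 was 3.06-fold the M1 mean of 43.1 ± 33.7. Without M0 replicate 3, or without M1 replicate 2, all M1 libraries lay below all M0 libraries, and the log2 difference of -1.72 became -2.35 without M0 replicate 3 and -2.34 without M1 replicate 2. It became -0.96 without M1 replicate 3, and -1.23 with median-of-ratios scaling of all libraries, under which the groups still overlapped. Replicate 3 was also the lowest of its group in the sum of 8 osteoclast markers, which was 156, 263 and 64.5 in M0, 87.9, 157 and 28.9 in M1 and 85.8, 121 and 42.6 in M1 + PBM. The largest terms of that sum were Atp6v0d2 in M0, at 122, 226 and 39.5, and Acp5 in M1 and M1 + PBM, while Ctsk was highest in replicate 3 of M0 (12.2, 12.6 and 12.8) and of M1 + PBM (6.98, 5.81 and 7.20). Of the 8 markers, Oscar, Calcr and Ocstamp stayed below an FPKM of 1 in every library. Ocstamp was highest in replicate 3 of M1 (0.200) and of M1 + PBM (0.246). The part of the osteoclast markers in the Mmp12 values was not tested.

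Mmp8 (ENSMUSG00000005800), the neutrophil collagenase gene, was low in every group. Its FPKM was 4.21, 1.72 and 1.43 in M0, 2.31, 0.975 and 0.716 in M1 and 1.66, 0.401 and 1.42 in M1 + PBM. All groups overlapped, and the log2 difference between M1 and M0 was -0.54, or -0.75 without M0 replicate 3. With median-of-ratios scaling the difference was -0.23. Most neutrophil markers were low as well, and 9 of the 12 stayed below an FPKM of 1 in all 9 libraries. Ly6g and S100a9 were listed at 0 throughout. The 12 summed to 1.67 to 2.55 in M0, 10.8 to 32.2 in M1 and 9.06 to 19.7 in M1 + PBM. The largest term of that sum was S100a8. Its FPKM was 1.13, 2.11 and 1.29 in M0, 16.7, 6.90 and 27.2 in M1 and 4.94, 6.94 and 14.5 in M1 + PBM. S100a8, Camp and Mmp25 were higher in all M1 libraries than in all M0 libraries.

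The gelatinase genes Mmp2 and Mmp9 encode enzymes that cut denatured collagen and basement membrane. For Mmp2 (ENSMUSG00000031740), the FPKM was 0.305, 0.438 and 13.9 in M0, 2.43, 0.958 and 1.99 in M1 and 1.41, 0.808 and 2.20 in M1 + PBM. M0 replicate 3 was 31.7 times the higher of the other M0 libraries and set the direction: the log2 difference between M1 and M0 was -0.16 with it and 0.99 without it, and 0.11 with median-of-ratios scaling of all libraries. Without it, every M1 library lay above both M0 libraries, with a mean ratio of 4.83. For Mmp9 (ENSMUSG00000017737), the FPKM was 3.76, 3.52 and 4.13 in M0, 7.84, 3.86 and 3.42 in M1 and 2.56, 5.18 and 2.20 in M1 + PBM. In M1 replicate 1 and M1 + PBM replicate 2 the level was above the M0 range. The difference of 0.26 between M1 and M0 became 0.31 without M0 replicate 3 and -0.049 without M1 replicate 1. With median-of-ratios scaling it was 0.66, and the M1 and M0 libraries then did not overlap.

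Mmp19 (ENSMUSG00000025355) encodes a secreted MMP that acts on basement membrane proteins. Its FPKM was 14.6, 15.0 and 9.49 in M0, 7.58, 10.8 and 8.35 in M1 and 9.19, 5.84 and 17.8 in M1 + PBM. The M1 range touched the M0 range through M0 replicate 3 and M1 replicate 2, and the M1 + PBM libraries spanned both. The difference between M1 and M0 was -0.49, and -0.026 with median-of-ratios scaling. Without M0 replicate 3 it was -0.68, and the M1 libraries then lay below both M0 libraries.

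Among the inhibitors, Timp2 (ENSMUSG00000017466) encodes a broad MMP inhibitor that is also needed for the activation of pro-MMP2 by MT1-MMP. Its FPKM was 64.4, 109 and 58.6 in M0, 12.8, 18.7 and 7.58 in M1 and 21.4, 18.5 and 13.9 in M1 + PBM. Every polarized library lay far below every M0 library. The M0 mean of 77.2 ± 27.3 was 5.93-fold the M1 mean of 13.0 ± 5.55, and 6.64-fold without M0 replicate 3. The log2 difference was -2.51, and -2.02 with median-of-ratios scaling.

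Timp1 (ENSMUSG00000001131) encodes an inhibitor that is known to be induced by inflammatory signals and that inhibits membrane-type MMPs poorly. Its FPKM was 2.14, 1.05 and 24.0 in M0, 10.2, 11.3 and 20.1 in M1 and 11.3, 5.06 and 26.8 in M1 + PBM. M0 replicate 3 was above all 3 M1 libraries, while the other M0 libraries were below all of them. The ratio of the M1 to the M0 mean was 1.53 with M0 replicate 3 and 8.68 without it, and the log2 differences were 1.39 and 2.49. With median-of-ratios scaling of all libraries the difference was 1.79, and the groups still overlapped. Timp1 lies within Syn1 on the opposite strand, and Syn1 had an FPKM of 0.771 to 5.67. Whether strand was used in counting is not given in the sources used here, so low Timp1 values are uncertain in that respect. Other members overlap annotated genes too. Timp2 overlaps Cep295nl on the same strand (FPKM 0.223 to 3.91). On the opposite strand, Mmp19 overlaps Tmem198b (0.986 to 2.74) and Gm47093 (at most 0.0587), Timp3 overlaps Syn3 (0.0412 to 0.103), and Mmp12 overlaps Mmp1b (at most 0.0222). What these overlaps add to the members' values was not tested.

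Timp3 (ENSMUSG00000020044) encodes an inhibitor that binds to the matrix and also blocks ADAM17. Its FPKM was 0.184, 0.186 and 9.14 in M0, 0.862, 0.533 and 0.934 in M1 and 0.814, 0.149 and 1.29 in M1 + PBM. Only M0 replicate 3 and M1 + PBM replicate 3 reached an FPKM of 1, so Timp3 passed neither filter and was the member left untested. M0 replicate 3 was 49.2 times the higher of the other M0 libraries. The log2 difference between M1 and M0 was -0.46 with M0 replicate 3 and 0.58 without it. With median-of-ratios scaling of all libraries it was -0.25. By the longest transcript and the rough depth estimate, the Timp3 value of M0 replicate 1 corresponded to about 26.7 fragments or fewer. That of M1 + PBM replicate 2, the lowest, corresponded to about 29.5 or fewer, which is among the thinnest data behind any member.

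**Figure D2:**
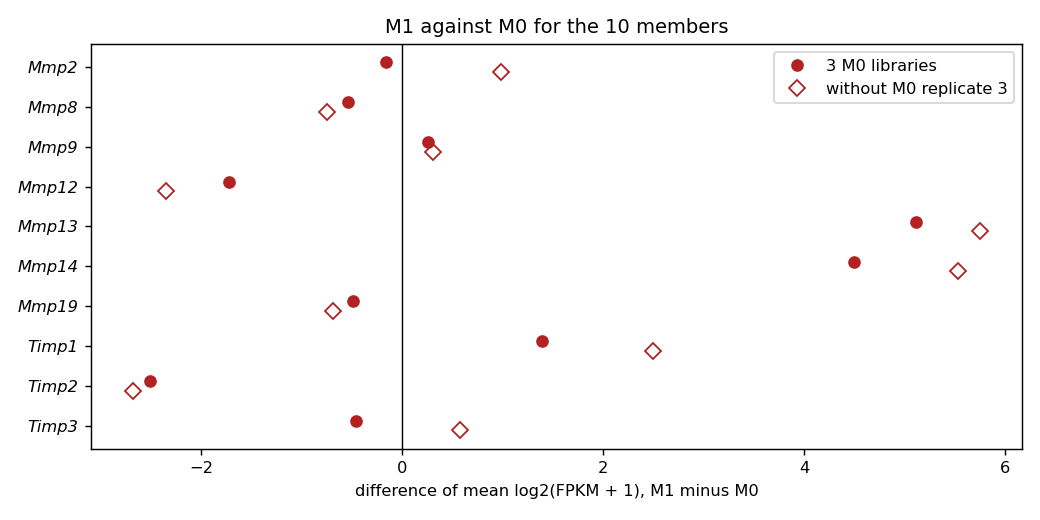
Difference of mean log2(FPKM + 1) between M1 and M0 for the 10 genes, with all 3 M0 libraries (filled circles) and without M0 replicate 3 (open diamonds); no error is drawn and no test was made between the separate tables. Mmp13 and Mmp14 lie at 5.11 and 4.50 and Timp2 at -2.51, while Mmp2 and Timp3 change side without M0 replicate 3.

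Across all 9 libraries, Timp3, Mmp2 and Timp1 had the highest correlations of the members with the stromal markers. Pearson's r of log2(FPKM + 1) with the summed stromal markers was 0.98 for Timp3, 0.95 for Mmp2 and 0.73 for Timp1 over 9 libraries, and 0.95, 0.78 and 0.86 over the 8 libraries without M0 replicate 3. Within the 6 libraries of the M1 and M1 + PBM table, r was 0.93 for Timp3, 0.86 for Timp1, 0.81 for Mmp19, 0.72 for Mmp13, 0.65 for Mmp2 and 0.60 for Mmp8, so Mmp19 and Mmp13 ranked above Mmp2 there. Over 9 libraries, Mmp19 had an r of 0.026, Mmp13 of 0.094 and Mmp8 of -0.034. Over the 8 libraries without M0 replicate 3, these were 0.21, 0.71 and -0.037. Some members went the other way, with Mmp12 at -0.70 and Timp2 at -0.60 over those 8 libraries. Mmp9 was at -0.68 over the 6 libraries. These values are descriptions over few libraries that share treatment groups, and what the stromal transcripts contribute to the members' levels was not tested.

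**Figure D3:**
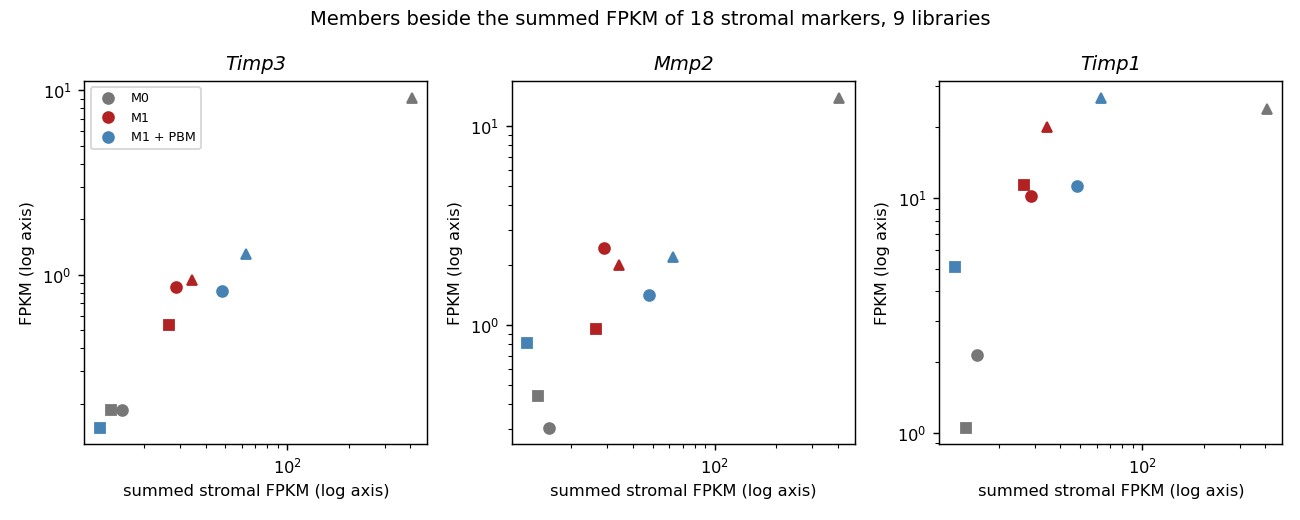
FPKM of Timp3, Mmp2 and Timp1 against the summed FPKM of 18 stromal markers in each library, both on log axes; colours give the group, and circles, squares and triangles replicates 1, 2 and 3. M0 replicate 3, at a stromal sum of 406, lies far to the right of the other 8 libraries, which lie between 12.2 and 62.8.

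The make-up of the family as a whole followed from these genes. Mmp12 gave 88.4%, 83.1% and 38.8% of the summed FPKM of the 7 MMPs in the M0 libraries, 10.1%, 20.7% and 1.85% in M1 and 9.49%, 16.5% and 4.47% in M1 + PBM. In M1, most of the sum came from Mmp13, with 41.9%, 31.4% and 63.0%, and from Mmp14, with 42.9%, 43.5% and 32.7%. In M1 + PBM the Mmp13 shares were 51.6%, 27.7% and 53.2% and the Mmp14 shares 35.7%, 51.9% and 36.3%. Every M1 and M1 + PBM library thus had more Mmp13 than Mmp12 per length, with ratios of 4.14, 1.52 and 34.1 in M1 and 5.43, 1.67 and 11.9 in M1 + PBM, whereas Mmp12 exceeded Mmp13 by 57.8, 76.0 and 3.67 times in M0. On the inhibitor side, Timp2 gave 96.5%, 98.9% and 63.9% of the summed TIMP level in M0 and 53.7%, 61.1% and 26.5% in M1. Timp1 was the larger inhibitor transcript in replicate 3 of both M1 and M1 + PBM, at 70.2% and 63.9%, and Timp2 was the larger in the other polarized libraries.

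The summed level of the MMP genes relative to the TIMP genes differed between M0 and both polarized groups. The MMP sum was 240.4, 165 and 119 in M0, 399, 378 and 583 in M1 and 461, 315 and 392 in M1 + PBM. The TIMP sum was 66.7, 109.8 and 91.7 in M0, 23.9, 30.6 and 28.6 in M1 and 33.5, 23.7 and 42.0 in M1 + PBM. Both sums separated M0 from the polarized groups, in opposite directions. The ratio of the sums was 3.60, 1.50 and 1.30 in M0, 16.7, 12.4 and 20.4 in M1 and 13.7, 13.3 and 9.32 in M1 + PBM, and the M1 and M1 + PBM ratios overlapped. These are ratios of transcript levels per length and not of protein or enzyme activity.

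**Figure D4:**
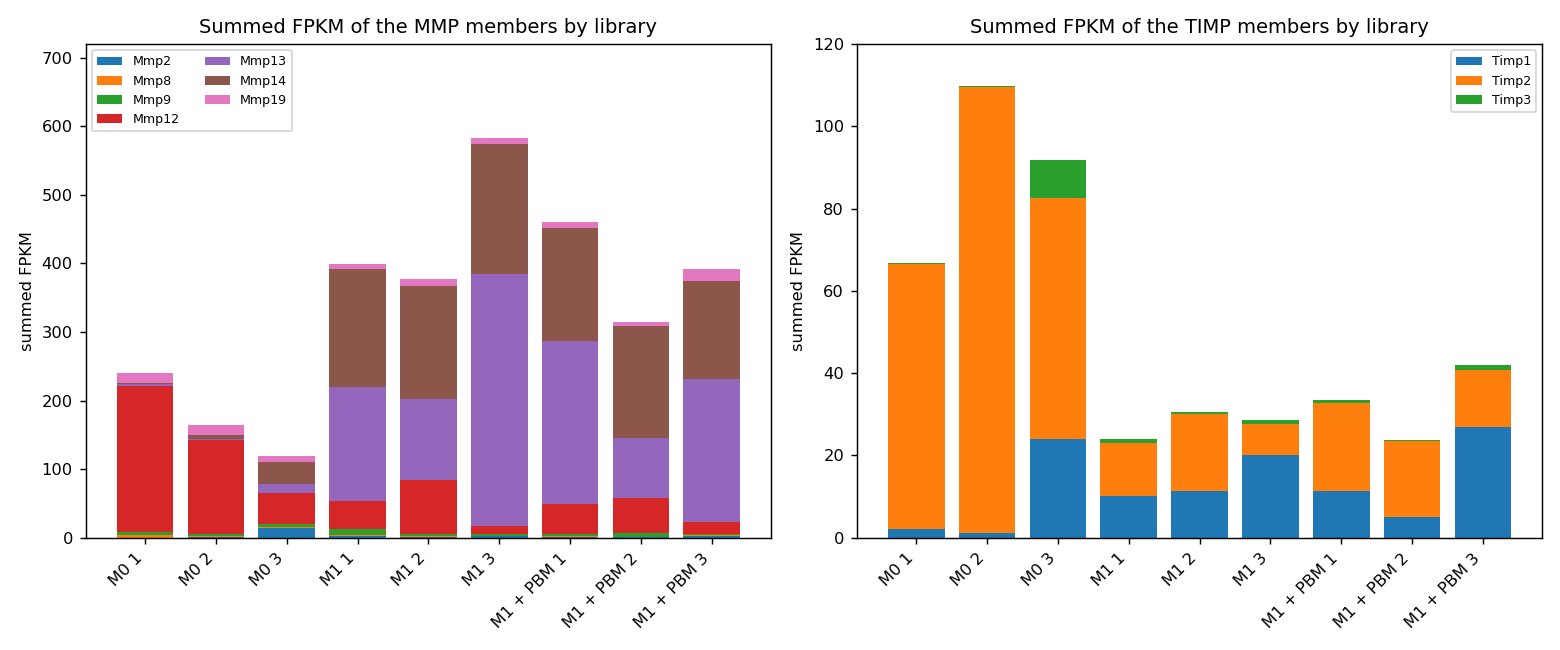
Summed FPKM of the MMP genes (left) and the TIMP genes (right) in each library, stacked by gene on axes that start at 0. Mmp12 makes up most of the M0 bars for replicates 1 and 2 and Mmp13 with Mmp14 most of every M1 and M1 + PBM bar, while the TIMP bars reach 66.7 to 109.8 in M0 and 23.7 to 42.0 in the polarized libraries.

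Ordered by mean level, M0 macrophages had Mmp12 and Timp2 at the top, with overlapping libraries, then, separated from them, Mmp19, Mmp14, Timp1, Mmp13, Mmp2, Mmp9, Timp3 and Mmp8, each overlapping its neighbour. In M1 the order was Mmp13 and Mmp14, which overlapped, then Mmp12, Timp1, Timp2, Mmp19 and Mmp9, and then Mmp2, Mmp8 and Timp3. The breaks between neighbours whose libraries did not overlap lay below Mmp14 and below Mmp9. M1 + PBM had the same leading members, Mmp13 and Mmp14, and the same trailing members, Mmp2, Mmp8 and Timp3, with Timp2 above Timp1 and breaks below Mmp14, below Mmp19 and below Mmp9.

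The comparison of M1 + PBM with M1 asked whether PBM changed the members in polarized cells. Both groups stand in the same table, so limma was fitted on log2(FPKM + 1) over the 12238 rows that reached an FPKM of 1 in 3 or more of these 6 libraries. At the thresholds of the study, an unadjusted p of at most 0.05 with a log2 fold change of 1 or more in either direction, 0 of the 9 tested members were called, against 0.261% of all rows (29 rows or 0.237% lower, and 3 rows or 0.0245% higher). At the unadjusted p alone, 0 members and 4.44% of all rows passed, and after Benjamini-Hochberg adjustment in limma 0 members and 1 row in all (0.00817%) passed. The M1 + PBM and M1 libraries overlapped for all 9, whereas 11.0% of all rows did not overlap, 8.51% higher and 2.52% lower. Estimates were negative for 6 members and positive for 3, with a median of -0.16, beside 0.058 over all rows. An exact permutation test of 3 against 3 libraries cannot give a p below 0.1, and those of the members ran from 0.2 to 0.9.

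Among the MMPs, Mmp14 had the most precise estimate, because its libraries lay close together. Its log2 fold change with PBM was -0.16 (SE 0.11, limma adjusted p = 0.900), with a 95% interval of -0.44 to 0.11, and it was lower in 3 of 3 replicate numbers. The mean FPKM was 157 ± 12.7 in M1 + PBM and 175 ± 13.5 in M1 (SD, n = 3 each). For Mmp14 the interval leaves out a change as large as the log2 fold threshold of 1, in either direction.

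Mmp13 had a log2 fold change of -0.25 (SE 0.53, limma adjusted p = 0.946) and an interval of -1.51 to 1.01. Its differences by replicate number were 0.50, -0.44 and -0.81, so replicate 1 went the other way from replicates 2 and 3. Mmp12 had an estimate of 0.064 with the widest interval of the members, -1.71 to 1.84, and turned to -0.012 with median-of-ratios scaling. In this fit the intervals of Mmp12 and Mmp13 include a log2 fold change of 1 in either direction. With the replicate number as a block they were -0.57 to 0.69 for Mmp12 and -0.94 to 0.44 for Mmp13, which leave out such a change.

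Mmp9 had a log2 fold change of -0.48 (SE 0.35, limma adjusted p = 0.900) with an interval of -1.31 to 0.36, and replicate 2 moved opposite to replicates 1 and 3. Mmp2 had an estimate of -0.18 with an interval of -0.85 to 0.50, Mmp8 one of -0.10 with an interval of -0.90 to 0.69, and Mmp19 one of 0.16 with an interval of -0.71 to 1.02. All 4 genes moved in both directions among the replicate numbers.

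Timp2 had a log2 fold change of 0.49 (SE 0.32, limma adjusted p = 0.900) with an interval of -0.27 to 1.25. It was higher with PBM by 0.70 and 0.80 in replicates 1 and 3 and near equal in replicate 2, at -0.014. With the replicate number as a block its standard error was 0.18 and its interval 0.020 to 0.97, which leaves out 0. Its unadjusted p in limma was then 0.0439, still short of the fold threshold and with an adjusted p of 0.577. Timp1 had an estimate of -0.16 with an interval of -1.49 to 1.16, and its replicates differed by 0.13, -1.03 and 0.40. Timp3 had differences of -0.038, -0.42 and 0.25 and an exact permutation p of 0.8.

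**Figure D5:**
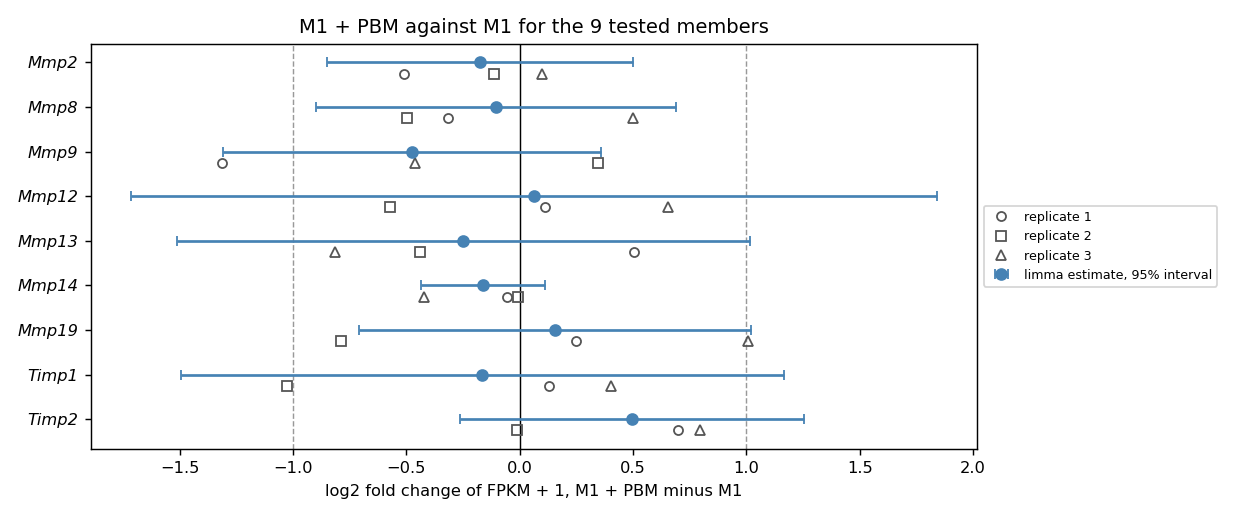
Log2 fold change of FPKM + 1 between M1 + PBM and M1 for the 9 tested genes: filled circles with bars give the limma estimate and its 95% interval, open symbols the difference for each replicate number, and dashed lines the fold threshold of 1. The fit shown has no replicate block, and every interval in it includes 0. That of Mmp14 is the narrowest (-0.44 to 0.11) and that of Mmp12 the widest (-1.71 to 1.84).

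M1 + PBM was also set beside M0, and this comparison shares its libraries with those above. The same count of members, 3 of 9, did not overlap, namely Mmp13 and Mmp14 (higher) and Timp2 (lower), against 62.2% of all rows (15.9% higher and 46.2% lower). Without M0 replicate 3 it was 7 of 9, with Mmp2, Mmp13, Mmp14 and Timp1 higher and Mmp8, Mmp12 and Timp2 lower, against 73.5% of all rows (19.2% higher and 54.3% lower). The log2 differences from M0 were 4.86 in M1 + PBM and 5.11 in M1 for Mmp13, 4.34 and 4.50 for Mmp14, -2.01 and -2.51 for Timp2, -1.66 and -1.72 for Mmp12, and 1.23 and 1.39 for Timp1. Without M0 replicate 3 they were 5.50 and 5.75 for Mmp13, 5.37 and 5.53 for Mmp14, -2.18 and -2.67 for Timp2, -2.28 and -2.35 for Mmp12, and 2.33 and 2.49 for Timp1. Mmp9 lay on different sides of M0, at -0.22 in M1 + PBM and 0.26 in M1, or -0.17 and 0.31 without M0 replicate 3. Its libraries overlapped M0 in both groups, and the M1 value was -0.049 without M1 replicate 1. Median-of-ratios scaling, which gave 0.66 for M1, was not run for M1 + PBM against M0. Mmp2, Mmp8, Mmp19 and Timp3 were at -0.33, -0.65, -0.33 and -0.53 in M1 + PBM, and at 0.81, -0.86, -0.53 and 0.51 without M0 replicate 3. Because the M0 libraries are shared, like values in both comparisons are no separate evidence.

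Of the 17 other MMP and TIMP genes, 13 stayed below an FPKM of 1 in every library and 3 passed the filter. With PBM 0 of those 3 had an unadjusted p of at most 0.05, beside 4.44% of all rows. Mmp3, which encodes stromelysin-1, was listed at 0, 0 and 2.68 in M0 and measured 5.42, 1.02 and 8.23 in M1 and 0.578, 0.236 and 2.31 in M1 + PBM. It was lower with PBM in 3 of 3 replicate numbers although the groups overlapped, with a log2 fold change of -1.41 (SE 0.62, limma adjusted p = 0.900). With the replicate number as a block, Mmp3 passed both thresholds, at an unadjusted limma p of 0.00353 and an adjusted p of 0.577. On leaving out a library, it passed both without M1 replicate 2, at an estimate of -2.05, and without M1 + PBM replicate 3, at -1.82. It passed neither without M1 replicate 3, at -0.95, and missed the p threshold without M1 replicate 1 (-1.21), M1 + PBM replicate 1 (-1.29) or M1 + PBM replicate 2 (-1.11). Mmp25, a membrane-anchored MMP of leukocytes, was 0.0622, 0.0222 and 0.0683 in M0, 1.53, 1.85 and 4.09 in M1 and 2.62, 1.56 and 4.50 in M1 + PBM, higher in all polarized libraries than in all M0 libraries. Mmp27 was 1.84, 3.44 and 0.892 in M0 and 1.37, 1.12 and 0.703 in M1, with overlap.

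Genes that activate, inhibit or clear MMPs were described next. Of 21 such genes 13 were tested, and with PBM 3 were lower and 0 higher at an unadjusted p of at most 0.05, beside 1.45% of all rows lower and 2.99% higher. The median of the 13 was -0.21, against 0.058 over all rows. Plaur, the urokinase receptor that focuses plasmin formation at the cell surface, averaged 32.5 ± 3.56 FPKM in M1 and 15.3 ± 6.01 FPKM in M1 + PBM, with no overlap and a log2 fold change of -1.09 (SE 0.25, limma adjusted p = 0.900). Serpinb2, an inhibitor of plasminogen activators, went from 26.9 ± 8.90 to 8.90 ± 3.34, also with no overlap and an estimate of -1.51 (SE 0.33, limma adjusted p = 0.900). Both were past the p and fold thresholds, but Plaur was at -0.97 without M1 + PBM replicate 1 and at -0.93 without M1 + PBM replicate 3, short of the fold threshold. Furin, a convertase that removes the propeptide of MT1-MMP, went from 26.4 ± 3.93 to 19.6 ± 2.63, with overlap and an estimate of -0.41 (SE 0.15). With the replicate block the unadjusted limma p of Furin was 0.0561. None of the 3 passed the adjustment over all rows.

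Between M1 and M0, 6 of these 13 genes were higher and 4 lower in M1 without overlap, beside 15.6% and 50.6% of all rows. Without M0 replicate 3 the counts were 7 and 5, beside 18.7% and 57.4%. Lcn2, whose product lipocalin-2 is known to bind MMP9, led the higher genes, with 0.0250, 0.0428 and 1.05 in M0 and 157, 73.2 and 167 in M1, a log2 difference of 6.59. It was followed by Serpinb2 at 4.27 and by Thbs1, a matrix glycoprotein that binds MMPs, at 3.17. Plau, the urokinase gene, led the lower genes, with 225, 124 and 113 in M0 and 27.8, 36.9 and 7.29 in M1, a difference of -2.82. Cd9, a tetraspanin, was lower by a difference of -2.37, and Lrp1, an endocytic receptor that clears MMPs and their complexes with TIMPs, by -1.90. All 6 kept their direction without overlap under median-of-ratios scaling and without M0 replicate 3, where Lcn2 was at 6.92 and Plau at -3.01.

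Of 17 related ADAM and ADAMTS proteases 8 were tested, with a median of 0.066. With PBM 1 was higher and 0 lower at an unadjusted p of at most 0.05, beside 2.99% and 1.45% of all rows. The higher one was Adamts10, a secreted protease linked to microfibrils, which went from 1.37 ± 0.103 to 1.82 ± 0.141 (log2 fold change 0.25, SE 0.092, limma adjusted p = 0.900) and had an unadjusted p of 0.0594 with the replicate block and 0.0514 with median-of-ratios scaling. Between M1 and M0, Adam33, Adam9 and Adam17 were higher in M1, by 1.05, 0.30 and 0.25, and Adam8, Adamts10 and Adam10 were lower, by -1.76, -1.41 and -1.02, all without overlap. Adam17 and Adam10 encode the main sheddases of cell-surface proteins. In all, 3 of the 8 were higher and 4 lower, beside 15.6% and 50.6% of all rows. The counts were the same without M0 replicate 3, beside 18.7% and 57.4% of all rows. With median-of-ratios scaling the Adam8 libraries overlapped and those of the other 5 named genes did not.

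Of 15 matrix genes whose products MMPs can cut, 9 were tested, with a median of -0.088. With PBM 1 was lower and 0 higher at an unadjusted p of at most 0.05, beside 1.45% and 2.99% of all rows. That gene was Vcan, which encodes the proteoglycan versican and went from 12.8 ± 1.65 to 8.60 ± 1.27 without overlap (log2 fold change -0.53, SE 0.14, limma adjusted p = 0.900). Vcan was at 0.240, 0.141 and 2.16 in M0, so both polarized groups were above it, and the difference of M1 from M0 was 3.06. Tgfbi, a secreted adhesion protein, was also higher in M1, by 2.09. Spp1, the gene of osteopontin, and Lamc1, a laminin chain, were lower by -0.83 and -0.60 without overlap, but overlapped with median-of-ratios scaling. Thus 2 of the 9 matrix genes were higher and 2 lower in M1, beside 15.6% and 50.6% of all rows. Without M0 replicate 3 these counts were 6 and 2, beside 18.7% and 57.4% of all rows. Over all partner and family lists, 5 of 33 tested genes had an unadjusted p of at most 0.05, beside 4.44% of all rows, and 8 with the replicate block, beside 8.07% of all rows.

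Last, the rows most like each member were found by Pearson's r of log2(FPKM + 1) over the 9 libraries among 13914 other rows, as a description with no test. Since the libraries fall into a resting and a polarized set, many rows share such a pattern. Timp2 had 820 rows with an r over 0.95, led by Gatb (0.995), Glod4 (0.993) and Syngr1 (0.993). Mmp13 had 520, led by Ell2 (0.995), Tlr3 (0.994) and Ms4a6b (0.994), and Mmp14 had 264, led by Lgals3bp (0.991), Bst2 (0.989) and Mrpl52 (0.989). Mmp12 had 42, with the mitochondrial transcripts mt-Nd5 (0.990) and mt-Atp6 (0.987) first, then Gm45627 (0.984). Mmp2 had 12, led by Col5a3 (0.978), Gja1 (0.978) and Enpp2 (0.971), and M0 replicate 3 was the highest library for Mmp2. Timp1 had 3 such rows, Gm16175 (0.980), Adamtsl4 (0.978) and C2 (0.954). Mmp8, Mmp9 and Mmp19 had 0 rows over 0.95, and their closest rows were Gm19345 (0.925), Vmn1r-ps136 (0.912) and Gm25713 (0.948).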

How the data were processed

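Per the labels, RNA of mouse BMDMs was made into 9 TruSeq libraries described as strand-specific. The deposited values were FPKM, which the authors determined by Cufflinks methods, with the M0 libraries in a table of their own (2 tables of 55655 rows). The submitters' processing notes name Bowtie 0.12.2 and mm9, and the role of each is not given in the sources used here. Symbols came from GENCODE M21 for 55154 rows. Transcripts without a reference name (320 rows) took 0.325% to 0.522% of the summed FPKM.

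For M1 + PBM and M1, limma 3.58.1 in R 4.3.3 was fitted (lmFit, eBayes with trend) on log2(FPKM + 1), keeping rows that reached an FPKM of 1 in 3 or more of 6 libraries, with Benjamini-Hochberg adjustment over all of them and two-sided exact permutation tests for single genes. No test was made between the tables. Of low FPKM values, 22.5% to 24.2% lay within 0.05 of whole multiples of the step of 1 fragment, so reads were not recovered and no count test was run. The fit was tested on simulated data. Same-numbered M1 and M1 + PBM libraries deviated together (r = 0.157, 0.469 and 0.462), although the labels do not say what the numbers stand for. The main fit had no replicate block, so its intervals ignore any pairing. A fit with the replicate number as a block was run as an alternative. Alternatives were another pseudocount, filters on low values, scaling, variance trend, replicate block and leaving out each library.

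Named were the 10 members, family genes passing the filter, partner genes with an unadjusted p of at most 0.05 or the largest non-overlapping differences between M1 and M0, and the rows most like a member. The members and lists were chosen with earlier results of these data known.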

Additional observations from a re-analysis of the deposited data

How the results depend on the processing

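The count of members past the p and fold thresholds and the count past the adjusted p were 0 under every alternative run for M1 + PBM against M1. The 5 family and partner genes at an unadjusted p of at most 0.05 became 8 with the replicate block, beside 8.07% of all rows. They were 3 to 9 on leaving out a library, beside 2.12% to 8.9% of all rows. The 9 genes and the 8.9% were both without M1 replicate 2. The estimate of Mmp12 reversed to -0.012 with median-of-ratios scaling. On leaving out a library, estimates crossed 0 for Mmp2 (-0.41 to 0.031), Mmp8 (-0.30 to 0.18), Mmp12 (-0.70 to 0.68), Mmp13 (-0.60 to 0.21), Mmp19 (-0.23 to 0.50) and Timp1 (-0.73 to 0.37), and the members' median ran from -0.23 to 0.18. Mmp14 (-0.21 to -0.093), Mmp9 (-0.77 to -0.17) and Timp2 (0.18 to 0.78) kept their sign. Timp2 had an unadjusted p of 0.0307 without M1 replicate 2 (limma adjusted p = 0.548). For the members, the replicate block changed no other call than those given for Timp2.

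Between M1 and M0, the count of non-overlapping members was 3, beside 66.3% of all rows. It ran from 3 to 7 on leaving out a library (7 without M0 replicate 3, 5 without M1 replicate 2). Without M0 replicate 3, 76.2% of all rows did not overlap, and the share was not computed for the other libraries left out. Under median-of-ratios scaling the count was 4, beside 4396 rows higher and 3518 lower of 13915. The difference of Mmp2 reversed to 0.11 with that scaling, to 0.29 with a pseudocount of 0.1, and ranged from -0.77 to 0.99 on leaving out a library. That of Mmp9 ranged from -0.049 to 0.45. The causes were not tested.

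Over all rows, the 32 calls by p and fold became 75 with the smaller pseudocount, 69 when M1 replicate 2 was left out and 89 when M1 + PBM replicate 2 was. The 543 rows at the unadjusted p became 988 with the replicate block, 1318 without a minimum FPKM, 233 with a mean FPKM of at least 5, 1089 without M1 replicate 2, 930 without M1 + PBM replicate 2, and 312 on leaving out M1 replicate 1, 259 on leaving out M1 + PBM replicate 1 and 342 on leaving out M1 + PBM replicate 3. With 3 libraries a group, the fits do not settle changes that lie inside the printed intervals. By the rough depth estimate, the lowest values of Timp3, Mmp2, Timp1 and Mmp8 rest on few fragments.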
